A study of Mus musculus with 4 samples.

Results

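Epn1 and Epn2, which encode epsin 1 and epsin 2, were described across the cell types of the mouse aorta. They are 2 of the 32285 genes in the single-cell matrices and were taken by symbol. Epsins are adaptor proteins of clathrin-coated pits: their ENTH domain binds and bends the inner face of the plasma membrane, and their tails bind clathrin, the AP2 adaptor and ubiquitinated cargo receptors. In the vessel wall they are known for taking up signalling receptors and the lipoprotein receptor Lrp1, and the title of the study concerns their role in cholesterol efflux through Abcg1. Epsin 3, encoded by Epn3, is the third member of the family and is known mainly from epithelia.

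Cells dissociated from aorta with collagenases and liberase were measured in 4 libraries with a 10x Genomics 3' kit, which counts unique molecular identifiers (UMIs, 1 per captured RNA molecule). The first library was WT and the second LysM-DKO, both from mice fed normal diet, and the next were WT/ApoE-/- and LysM-DKO/ApoE-/-, both from mice fed western diet. Each group is 1 library, and this order is kept throughout. LysM names the lysozyme M gene, whose promoter is commonly used to drive recombination in myeloid cells. The labels do not spell out DKO, the deleted exons, the age of the mice or how many aortas went into a library, so p-values below measure only the spread between these 4 libraries. Both western diet groups carry the ApoE deletion and both normal diet groups do not. Xist, transcribed in female cells, was at 973 and 951 CPM (UMIs of a gene scaled to all UMIs of the library or class) in the normal diet libraries and at 0.608 and 0.608 CPM in the western diet libraries, while the Y-linked Ddx3y was at 0, 0, 115 and 123 CPM. Diet, ApoE genotype, sex and software version therefore cannot be told apart.

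Barcodes needed 1000 UMIs or more, of which no more than 10% could be mitochondrial, and each was placed in the first class it matched: macrophage (at least 5 UMIs of C1qa, C1qb and C1qc), B cell (2 of Cd79a and Ms4a1), T cell (2 of Cd3d, Cd3e and Trac), Pecam1/Cdh5 (2 of these endothelial junction genes), fibroblast (3 of Pdgfra and Serpinf1) and smooth muscle (3 of Myh11 and Cnn1). Of 70795 barcodes, 37865 were kept and 33255 fell into a class. The libraries held 51281643, 50662515, 67450979 and 62510744 UMIs, with a median of 4167, 3404, 2103 and 6761 UMIs per kept barcode. Between 9 and 41 kept barcodes were shared by any pair of libraries.

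The class names were checked against markers that the rule did not use, and many barcodes matched more than 1 rule. This held for 27.8, 33.0, 9.84 and 7.82% of the classed barcodes. The macrophage class carried all 6 macrophage markers in all 4 libraries. They summed to 4121 to 7983 CPM, against 4283 to 8277 CPM for the 6 smooth muscle markers. With the barcodes that matched 1 rule the sums were 5471 to 10949 CPM against 1136 to 3074 CPM. Of all macrophage barcodes, 34.1 to 61.5% also matched the smooth muscle rule. The same was true of 17.9 to 67.1% of B cell barcodes, 19.7 to 69.6% of T cell barcodes and 27.7 to 44.6% of fibroblast barcodes. The 5 B cell markers summed to 2012 to 13709 CPM in B cells, against 4503 to 7132 CPM for the 6 smooth muscle markers, and the 5 T cell markers to 1170 to 1768 CPM in T cells, against 5263 to 10042 CPM. With the barcodes that matched 1 rule the medians were 6328 against 3109 CPM in B cells and 2036 against 3040 CPM in T cells, and the smooth muscle markers were above the T cell markers in 3 of 4 libraries, all but WT/ApoE-/-, so T cell names the rule only. In fibroblasts the 6 fibroblast markers summed to 17765 to 28755 CPM, against 5181 to 7723 CPM for smooth muscle markers. In the Pecam1/Cdh5 class 69.4 to 83.2% of barcodes also matched the smooth muscle rule, and its 6 endothelial markers summed to 162 to 804 CPM, against 17183 to 24235 CPM for the 6 smooth muscle markers. These data go against an endothelial name, and the class is called by its rule genes. Results are given for all barcodes of a class and, where they differ, for the barcodes that matched 1 rule only. In those, the endothelial markers of the Pecam1/Cdh5 class had a median of 1720 CPM, the smooth muscle markers 3378 CPM and the fibroblast markers 4830 CPM.

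Both genes are protein-coding. On GRCm38 with the GENCODE M21 annotation, Epn1 (ENSMUSG00000035203) lies on the plus strand at chr7:5080235-5098178, has 7 annotated transcripts and overlaps no other gene. Epn2 (ENSMUSG00000001036) lies on the minus strand at chr11:61517249-61579687 with 13 transcripts, and the antisense gene Gm12272 overlaps it. The 250 bases before each start are shown because mean Epn1 was higher and mean Epn2 lower in leukocyte than in vessel wall classes. The bases are from RefSeq on GRCm38.p6, read 5′ to 3′ on the gene's strand, at chr7:5079985-5080234 for Epn1 and chr11:61579688-61579937 for Epn2. Capitals mark GGGCGG, the GC box that Sp1-type factors bind.
Epn1: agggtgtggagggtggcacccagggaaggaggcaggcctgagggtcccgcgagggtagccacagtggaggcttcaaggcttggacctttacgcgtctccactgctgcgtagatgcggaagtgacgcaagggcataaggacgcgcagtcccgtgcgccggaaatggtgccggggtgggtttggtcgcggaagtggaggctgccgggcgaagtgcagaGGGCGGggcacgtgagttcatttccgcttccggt
Epn2: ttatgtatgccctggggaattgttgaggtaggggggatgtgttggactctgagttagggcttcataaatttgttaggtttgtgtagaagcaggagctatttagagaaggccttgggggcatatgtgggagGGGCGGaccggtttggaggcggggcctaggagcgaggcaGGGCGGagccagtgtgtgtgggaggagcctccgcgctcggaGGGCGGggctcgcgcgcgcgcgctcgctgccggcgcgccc

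Searched on both strands, GGGCGG occurred 1 time before Epn1 and 3 times before Epn2, and 32.7% of 32851 RefSeq windows of the same length held it. The E-box CACGTG occurred 1 time before Epn1, next to the GC box without overlapping it, and 0 times before Epn2, against 6.02% of the windows. Neither window held TATAAA, found in 12.4% of windows, or the CArG box of serum response factor, found in 1.47%. The share of G and C was 65.2% before Epn1 and 62.8% before Epn2, against a median of 52.4% over all windows, and CG dinucleotides numbered 21 and 19 against a median of 6. RefSeq lists another start of Epn1 close by, which is not shown. The matches describe these windows only.

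By mean CPM over all barcodes, Epn1 was highest in macrophages and lowest in smooth muscle, and Epn2 was highest in the Pecam1/Cdh5 and smooth muscle classes and lower in the 3 leukocyte classes. The order of Epn2 among macrophages, B cells and T cells was not stable: macrophages were lowest by this mean, but with the barcodes that matched 1 rule they were the highest of the 3, at a mean of 26.3% of the smooth muscle level against 10.2% in B cells and 18.5% in T cells, with overlapping ranges over the libraries. The mean level of Epn1 fell in the order macrophage 57.8 ± 16.7, B cell 49.2 ± 7.56, T cell 39.7 ± 6.07, Pecam1/Cdh5 31.7 ± 6.75, fibroblast 30.4 ± 1.68 and smooth muscle 28.9 ± 5.62 CPM (SD over 4 libraries). That of Epn2 fell in the order Pecam1/Cdh5 109 ± 11.8, smooth muscle 106 ± 11.6, fibroblast 70.5 ± 14.7, B cell 41.9 ± 25.5, T cell 34.3 ± 10.9 and macrophage 29.5 ± 9.30 CPM. In both orders every pair of neighbouring classes overlapped in the range of its libraries. Over the 24 sums of a library and a class, the log2 levels of the 2 genes had a Pearson r of -0.68, given as a description because classes of a library share its preparation and depth.

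**Figure D1:**
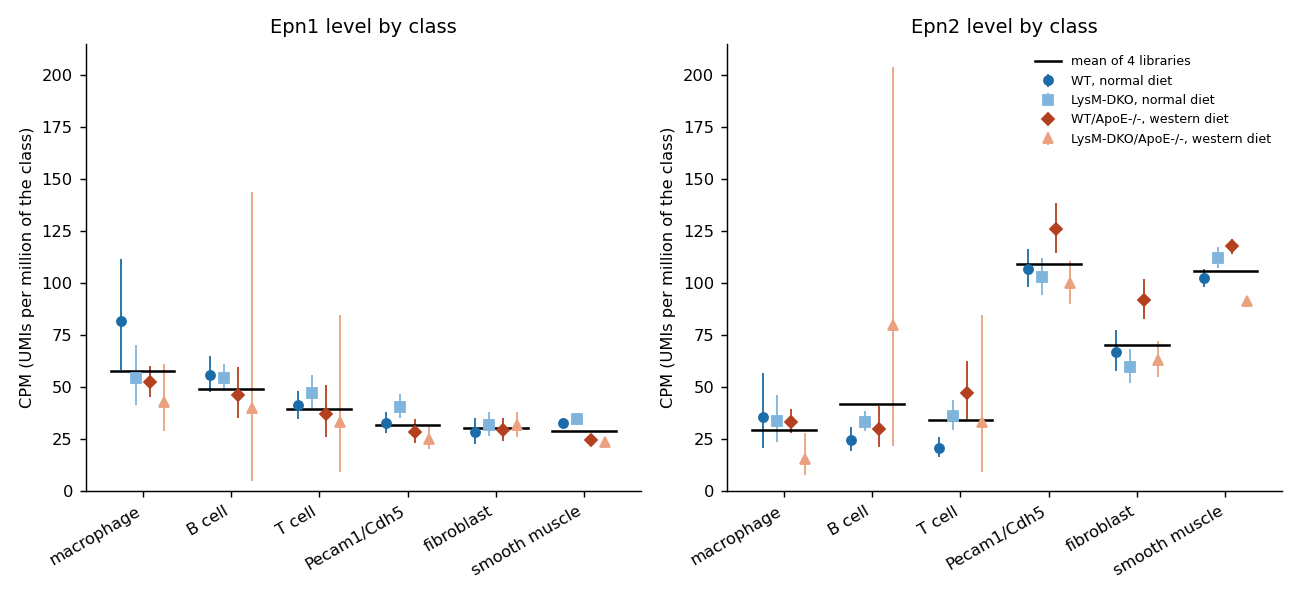
Level of Epn1 (left) and Epn2 (right) in CPM, scaled to the UMIs of the class, for 6 classes and 4 libraries. Points are libraries, bars are exact 95% Poisson intervals for counting error, and black lines are means; Epn1 falls from left to right while Epn2 is high in the Pecam1/Cdh5, fibroblast and smooth muscle classes.

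Epn1 in macrophages was read from 39, 60, 205 and 30 UMIs, which gave 81.7, 54.5, 52.4 and 42.7 CPM. In smooth muscle it was read from 758, 596, 844 and 1141 UMIs, or 32.8, 34.7, 24.5 and 23.7 CPM. The 2 classes did not overlap, and macrophages were higher in all 4 libraries. In the test of each class against the mean of the other 5 (edgeR's quasi-likelihood test with the library as a block, Benjamini-Hochberg adjusted over 13354 genes), macrophage Epn1 was higher by 0.89 on the log2 scale (SE 0.17, adjusted p = 1.18e-06). In that comparison 42.2% of all genes were called. With the barcodes that matched 1 rule only, the difference was 1.08 (SE 0.24, edgeR adjusted p = 4.37e-05).

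Epn1 in B cells was at 56.0, 54.5, 46.2 and 39.8 CPM, the last from 2 UMIs in 14 barcodes. It was higher than in the other classes by 0.51 (SE 0.14, edgeR adjusted p = 0.00084), where 56.1% of genes were called. T cells, at 41.2, 47.3, 37.1 and 33.1 CPM, lay near the middle of the order: the difference was 0.11 (SE 0.12, edgeR adjusted p = 0.453), where 57.2% of genes were called. With 1-rule barcodes it was -0.05 (SE 0.30).

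The 3 classes of the vessel wall were lower in Epn1. Smooth muscle fell by 0.52 against the other classes (SE 0.13, edgeR adjusted p = 0.000206), the Pecam1/Cdh5 class by 0.56 (SE 0.14, adjusted p = 0.000234) and fibroblasts by 0.43 (SE 0.13, adjusted p = 0.00243). Of all genes, 54.7, 48.5 and 51.1% were called in these 3 comparisons. Fibroblast Epn1, at 28.5, 31.9, 29.4 and 31.6 CPM, had the smallest spread of the 6 classes. Its call was lost without the WT library on normal diet (edgeR adjusted p = 0.0589) and without the LysM-DKO library on normal diet (adjusted p = 0.0653).

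Epn2 in smooth muscle rested on the most counts of the data, 2371, 1926, 4050 and 4402 UMIs, and was at 102, 112, 118 and 91.3 CPM. It was higher than in the other classes by 1.17 (SE 0.19, edgeR adjusted p = 2.16e-08). With 1-rule barcodes the difference was 1.74 (SE 0.31, edgeR adjusted p = 1.72e-07). Smooth muscle is the last rule, so its own barcodes were the same in both settings and only the other classes changed. The LysM-DKO/ApoE-/- library on western diet was the lowest of the 4.

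The Pecam1/Cdh5 class had 543, 524, 427 and 355 Epn2 UMIs, or 107, 103, 126 and 99.9 CPM, and was higher by 1.02 (SE 0.18, edgeR adjusted p = 7.13e-07). Most of its barcodes also matched the smooth muscle rule. In its 138, 249, 63 and 51 barcodes that did not match another rule, Epn2 was at 97.4, 86.0, 73.4 and 106% of the smooth muscle level of the same library. These shares rested on 49, 78, 32 and 28 UMIs. Acta2, smooth muscle actin, was at 13.5, 14.8, 7.48 and 4.50% in the same barcodes. Their fibroblast markers, at a median of 4830 CPM, exceeded their endothelial markers, at 1720 CPM. Epn2 in these barcodes was higher than in the other classes by 1.44 (SE 0.32, edgeR adjusted p = 9.05e-05).

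Fibroblast Epn2 was at 67.1, 59.8, 92.1 and 62.9 CPM, below smooth muscle in all 4 libraries. It was above the mean of the other classes by 0.43 (SE 0.14, edgeR adjusted p = 0.00679) and by 0.85 with 1-rule barcodes (SE 0.26, adjusted p = 0.00386). Without the library block the adjusted p was 0.0527.

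Epn2 was lower in the 3 leukocyte classes. In macrophages it was read from 17, 37, 130 and 11 UMIs, which gave 35.6, 33.6, 33.2 and 15.7 CPM, and fell by 0.84 against the other classes (SE 0.21, edgeR adjusted p = 0.000261). In B cells it was at 24.7, 33.4, 29.8 and 79.7 CPM, the last from 4 UMIs, and fell by 0.94 (SE 0.21, edgeR adjusted p = 5.13e-05). In T cells it was at 20.7, 36.04, 47.2 and 33.1 CPM, the last also from 4 UMIs, and fell by 0.84 (SE 0.20, edgeR adjusted p = 0.000138). The larger B cell level and the T cell level of the LysM-DKO/ApoE-/- library have 95% intervals of 21.7 to 204 and 9.02 to 84.8 CPM.

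With 1-rule barcodes the Epn2 difference from the other classes was -1.65 in B cells (SE 0.41, edgeR adjusted p = 0.000354) and -1.51 in T cells (SE 0.41, adjusted p = 0.00107). The macrophage difference was then -0.87 (SE 0.38, adjusted p = 0.0483), from 36, 75, 531 and 85 barcodes with 9, 12, 22 and 5 Epn2 UMIs. Without the WT/ApoE-/- library it was -0.29 (edgeR adjusted p = 0.597) and without the LysM-DKO/ApoE-/- library -0.75 (adjusted p = 0.169), so that call rested on the western diet libraries.

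Smooth muscle RNA was present in every leukocyte class. All 6 smooth muscle markers were seen in all 4 macrophage sums, at a summed 4283 to 8277 CPM against 28119 to 37460 CPM in smooth muscle, and none was at 0. Acta2 in macrophages was at 14.3, 16.3, 24.1 and 12.3% of the smooth muscle level of the same library, where Epn2 was at 34.8, 30.0, 28.2 and 17.2% and Epn1 at 249, 157, 214 and 181%. In the WT/ApoE-/- library, macrophage barcodes that also matched smooth muscle had 65.1 CPM of Epn2 and 9796 CPM of Acta2, and the others had 13.6 CPM of Epn2 and 754 CPM of Acta2. In the other 3 libraries the order of Epn2 was the other way, 29.2 against 44.3 CPM in WT, 31.5 against 38.4 CPM in LysM-DKO and 11.1 against 18.5 CPM in LysM-DKO/ApoE-/-. The part of this RNA in the macrophage level of Epn2 was not tested.

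In B cells that matched 1 rule, Epn2 stood close to the smooth muscle marker. It was at 13.0, 18.8 and 8.98% of the smooth muscle level in the first 3 libraries, where Acta2 was at 15.9, 15.0 and 5.68%. The fourth library had 10 such barcodes and no UMI of either epsin. Epn1 in the same B cells was at 192, 211 and 206% of its smooth muscle level. For T cells, Epn2 was at 6.91, 29.0 and 11.03% and Acta2 at 12.7, 14.7 and 4.79% in the first 3 libraries, and Epn1 at 135, 114 and 172%. The fourth library, with 17 such barcodes and 1 UMI of each epsin, had 27.0% for Epn2, 6.91% for Acta2 and 104% for Epn1.

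**Figure D2:**
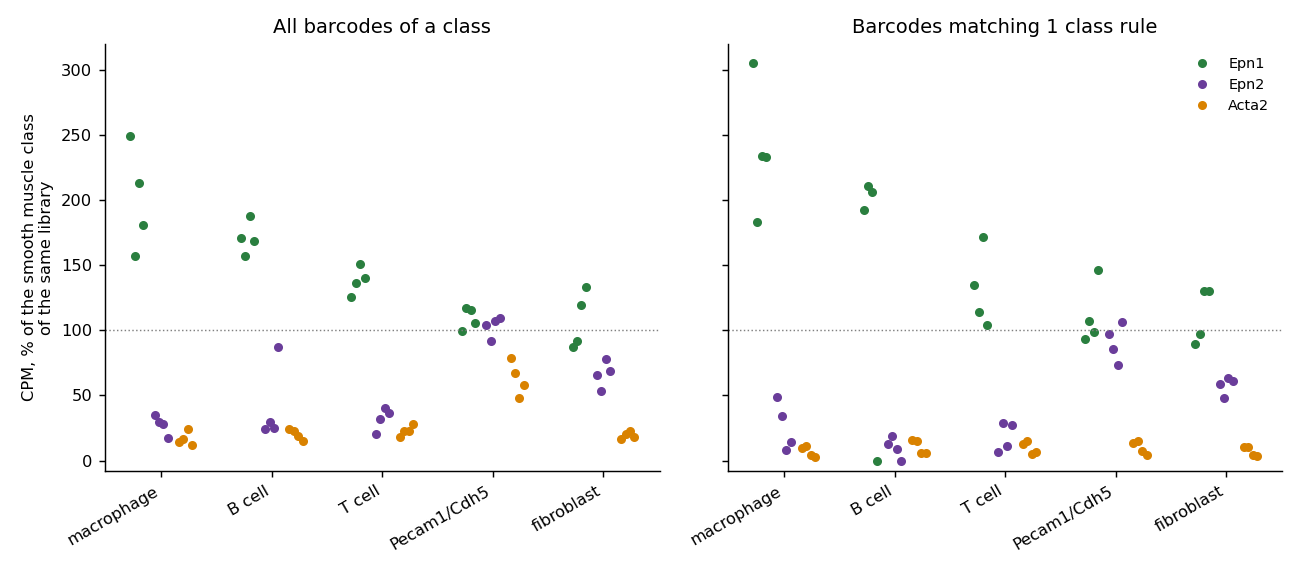
Level of Epn1 (green), Epn2 (purple) and the smooth muscle gene Acta2 (orange) in 5 classes as a percentage of the smooth muscle class of the same library, for all barcodes (left) and for barcodes matching 1 rule (right); each point is a library. On the right, Epn2 and Acta2 lie close together in B cells. Epn2 of the Pecam1/Cdh5 class, from 28 to 78 UMIs, lies between 73.4 and 106% there, with Acta2 at 4.50 to 14.8%. The B cell points at 0 for both epsins are the library with 10 barcodes.

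The balance of the 2 genes does not depend on the depth of a sum. Epn2 made up 75.8, 76.4, 82.8 and 79.4% of the Epn1 and Epn2 UMIs of smooth muscle, and 30.4, 38.1, 38.8 and 26.8% of those of macrophages. Its mean share was 78.6 ± 3.21% in smooth muscle, 77.5 ± 4.39% in the Pecam1/Cdh5 class, 69.4 ± 4.74% in fibroblasts, 45.7 ± 9.64% in T cells, 43.6 ± 15.8% in B cells and 33.5 ± 5.89% in macrophages (SD, n = 4). A 3' UMI count does not grow with transcript length, but the 2 genes may be captured unequally, so the share is compared between classes and not read as a ratio of molecules.

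Smooth muscle had the higher share in 4 of 4 libraries against macrophages, B cells, T cells and fibroblasts. The mean differences in log2(Epn2/Epn1) were 2.87 ± 0.40, 2.30 ± 0.83, 2.15 ± 0.33 and 0.69 ± 0.23 (SD, n = 4). In an exact two-sided sign-flip permutation test over the 4 libraries each gave p = 0.13, the smallest this design allows, and 0.156 when adjusted over the 5 comparisons. Against the Pecam1/Cdh5 class smooth muscle was higher in 2 of 4 libraries, with a difference of 0.09 ± 0.19 (exact permutation p = 0.5). With 1-rule barcodes the mean share was 26.1 ± 11.1% in macrophages, 33.1 ± 17.3% in T cells, 75.1 ± 2.65% in the Pecam1/Cdh5 class and 65.7 ± 3.71% in fibroblasts (SD, n = 4). That of B cells was 19.0 ± 2.87% (SD, n = 3), below macrophages.

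**Figure D3:**
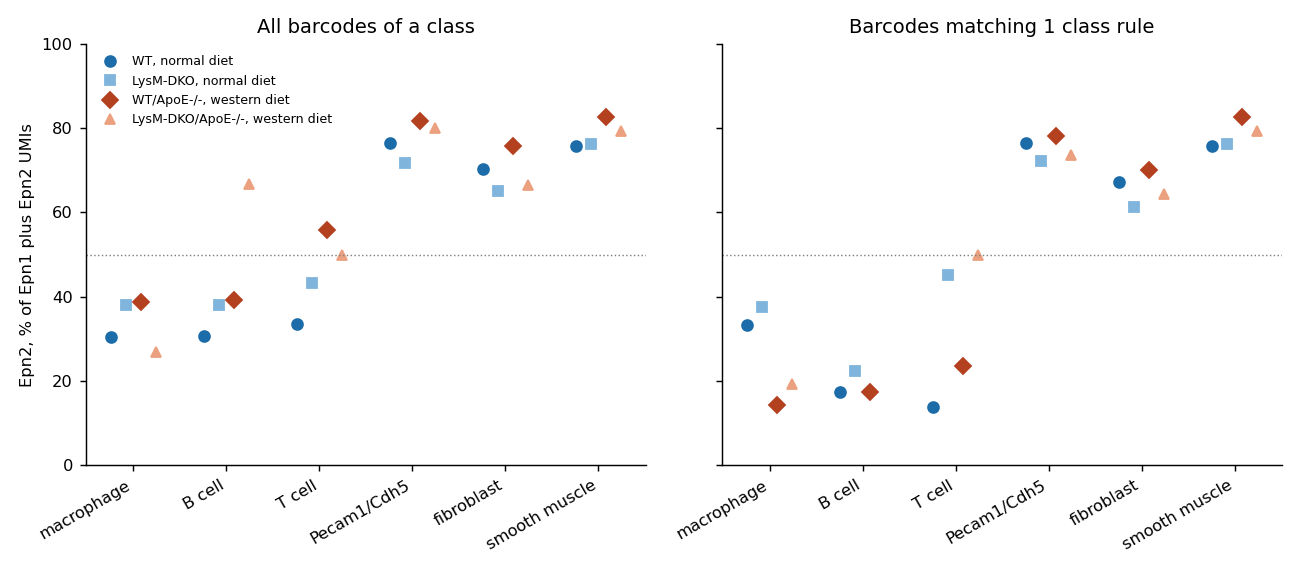
Epn2 as a percentage of Epn1 plus Epn2 UMIs in 6 classes, for all barcodes (left) and barcodes matching 1 rule (right); each point is a library and the dotted line marks 50%. Smooth muscle lies between 75.8 and 82.8% and macrophages between 26.8 and 38.8% on the left; the LysM-DKO/ApoE-/- library has 6 UMIs in B cells and 8 in T cells there, and its B cells are absent on the right.

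Shares of barcodes with a UMI, which depend on depth, were taken before and after thinning. Epn1 was seen in 35.9, 24.04, 17.6 and 17.8% of macrophage barcodes, and Epn2 in 39.8, 35.0, 29.7 and 44.4% of smooth muscle barcodes. After each barcode was thinned to 1000 UMIs, the mean over libraries was 6.03% for Epn1 in macrophages against 2.73% in smooth muscle, and 9.53% for Epn2 in smooth muscle against 4.77% in macrophages, 1.76% in B cells and 1.66% in T cells. By this thinned mean macrophages stood above the other leukocytes in Epn2, with overlapping ranges over the libraries. As a low reference, barcodes of no class with at least 100 hemoglobin UMIs (287, 260, 35 and 18 barcodes) held Epn1 in 1.74, 0.769, 2.86 and 0% and Epn2 in 3.48, 5.77, 0 and 0%, at a median of 2220, 1924.5, 1743 and 1188 UMIs. Macrophage barcodes had medians of 4708.5, 4715, 2796 and 4025 UMIs, so these references are shallower.

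Epn3 was close to undetected, with 11 UMIs in all classes and libraries together: 8 in smooth muscle, 2 in fibroblasts and 1 in macrophages. It lies at chr11:94489599-94499974 and did not pass the filter on low counts. B cells, T cells and the Pecam1/Cdh5 class had 0 Epn3 UMIs, which at the depth of the Pecam1/Cdh5 class allows up to 0.591, 0.589, 0.886 and 0.845 CPM (3 UMIs of the total).

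Subgroups within the classes were compared by level only. Smooth muscle barcodes with at least 2 UMIs of Rgs5, a regulator of G protein signalling found in pericytes and arterial muscle, had 32.8, 34.6, 24.3 and 23.3 CPM of Epn1, and the remaining ones had 32.7, 34.8, 24.9 and 24.4 CPM. For Epn2 the pairs were 112 and 94.8, 117 and 108, 118 and 118, and 90.8 and 92.3 CPM. Fibroblasts with Pi16 or Dpp4, genes of adventitial fibroblasts, had 34.2, 35.5, 38.6 and 39.7 CPM of Epn1 against 22.4, 28.0, 26.4 and 26.5 CPM in the others, higher in 4 of 4 libraries. Their Epn2, at 60.2, 62.6, 97.1 and 74.6 CPM against 74.5, 56.6, 90.5 and 55.5 CPM, was higher in 3 of 4. No test was planned for these subgroups.

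Macrophages with at least 2 UMIs of Trem2 and Gpnmb, genes of lipid-laden macrophages, numbered 13, 26, 468 and 53. Their Epn1 was at 80.2, 48.0, 59.3 and 43.5 CPM and their Epn2 at 44.6, 10.7, 19.2 and 15.3 CPM. Macrophages with Lyve1 and Folr2, genes of resident macrophages, numbered 34, 64, 21 and 39 and had 126, 61.9, 13.7 and 50.8 CPM of Epn1, the third from 1 UMI. The order of these subgroups changed between libraries. Among barcodes of no class, 851 of the WT/ApoE-/- library had at least 5 UMIs of Lum and Vcam1, genes of modulated wall cells, with 27.6 CPM of Epn1 and 90.8 CPM of Epn2. The 265 with cartilage genes (Acan, Col2a1, Chad) in that library had 22.6 and 49.0 CPM, and intervals of 15.7 to 31.4 and 38.6 to 61.3 CPM.

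The partners of the epsins in endocytosis were followed in a list of 48 genes, 46 of which passed the filter; Epn3 and the neuronal clathrin assembly gene Snap91 did not. In macrophages 21 were higher and 7 lower than in the other classes, with a median difference of 0.44 on the log2 scale against -0.09 over all genes. In every other class more partners were lower than higher. Lower and higher counts were 15 and 10 in B cells, 14 and 12 in T cells, and 16 and 14 in the Pecam1/Cdh5 class. In fibroblasts they were 20 and 10, and in smooth muscle 18 and 11. Of all 13354 genes, 2610 were lower and 3020 higher in macrophages. These counts were 3879 and 3606 in B cells, 4029 and 3605 in T cells, and 3254 and 3223 in the Pecam1/Cdh5 class. In fibroblasts they were 3381 and 3449, and in smooth muscle 3367 and 3933. In B cells, T cells and the Pecam1/Cdh5 class all genes therefore leaned the same way as the partners. With 1-rule barcodes the Pecam1/Cdh5 class turned to 11 higher and 4 lower of 43 tested. Without a filter on low counts it turned to 16 higher and 10 lower of 48. All genes turned likewise in that class, to 1756 higher and 661 lower with 1-rule barcodes and 4446 and 2090 without the filter. The medians with all barcodes were -0.19, -0.10, -0.09, -0.33 and -0.21, against -0.09, -0.12, -0.04, -0.06 and 0.02 over all genes. The partners called made up 60.9, 54.3, 56.5, 65.2, 65.2 and 63.0% of those tested in the order of the classes, beside 42.2, 56.1, 57.2, 48.5, 51.1 and 54.7% of all genes.

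The groups of the list are small, and their counts are given beside the share of all genes called. Of the 8 clathrin and AP2 genes, which form the coat, 6 were higher and 0 lower in macrophages. In T cells 0 were higher and 2 lower. Those called made up 75% of the group in macrophages and 25% in T cells, beside 42.2 and 57.2% of all genes. Of the 14 scaffolds and ubiquitin adaptors, 8 were higher and 0 lower in macrophages. The Pecam1/Cdh5 class had 0 higher and 7 lower, and smooth muscle 0 higher and 8 lower. The shares called were 57.1, 50 and 57.1%, beside 42.2, 48.5 and 54.7% of all genes. With 1-rule barcodes the Pecam1/Cdh5 class had 1 higher and 0 lower of 13 tested, so none of its 7 lower calls remained. Over all genes, 23.8% were called in that class with these barcodes, and lower calls went from 3254 to 661. Smooth muscle then had 0 higher and 6 lower, with 51.7% of all genes called. Of the 13 cargo receptors and signals, 10 were higher and 1 lower in the Pecam1/Cdh5 class. In fibroblasts 3 were higher and 8 lower. Each share called was 84.6%, beside 48.5 and 51.1% of all genes. With 1-rule barcodes 12 were tested, with 7 higher and 1 lower in the Pecam1/Cdh5 class and 3 higher and 4 lower in fibroblasts. The shares called were then 66.7 and 58.3%, beside 23.8 and 47.5% of all genes. The 6 ubiquitin ligases split in every class, for example 2 higher and 3 lower in macrophages, 83.3% beside 42.2% of all genes.

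In macrophages the strongest partner differences were Dab2, an adaptor for lipoprotein receptors, at 495 ± 136 CPM and higher by 4.55 (SE 0.52, edgeR adjusted p = 1.11e-15), Abcg1, a cholesterol exporter, higher by 3.20 (SE 0.52, adjusted p = 1.53e-08), and Itsn1, an endocytic scaffold, higher by 1.98 (SE 0.30, adjusted p = 5.72e-10). Abcg1 had a wide spread there, 164 ± 153 CPM (SD, n = 4). Flt4, the VEGF receptor of lymphatic vessels, was called lower (edgeR adjusted p = 0.0149), but it had no UMI in any macrophage sum and fewer than 2 CPM on average in 4 of the other classes, so no fold is given. Abcg1 was also higher in B cells, by 1.88 (SE 0.42, edgeR adjusted p = 5.75e-05), and lower in fibroblasts and smooth muscle, where the differences were -2.12 (SE 0.51) and -2.49 (SE 0.50).

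In the Pecam1/Cdh5 class the receptors Kdr and Flt4 and the Notch ligands Dll4 and Dll1 led. Kdr, the main VEGF receptor of endothelium and one of the endothelial markers above, was higher by 4.51 (SE 0.59, edgeR adjusted p = 1.25e-11), Flt4 by 5.64 (SE 0.77), Dll4 by 3.87 (SE 0.61) and Dll1 by 2.58 (SE 0.42). Kdr averaged 79.0 ± 73.5 CPM there. With 1-rule barcodes Kdr was higher by 6.92 and Dll4 by 6.51.

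In T cells Cblb, a ubiquitin ligase that restrains T cell receptor signalling, was higher by 2.83 (SE 0.37, edgeR adjusted p = 4.19e-12), and the early coat scaffold Fcho1 by 3.48 (SE 0.59), from a mean of 7.74 ± 1.53 CPM. Kdr and Dab2 were lower in T cells, by -2.32 (SE 0.66) and -2.27 (SE 0.44), with Kdr at a mean of only 1.29 ± 2.22 CPM. In B cells the clathrin-actin linker Hip1r was higher by 1.93 (SE 0.28, edgeR adjusted p = 6.29e-10), while Dab2 fell by 2.55 (SE 0.46). Fcho1 was higher there by 2.73 (SE 0.54), from a mean of 3.75 ± 2.60 CPM. Fibroblasts were higher in Lrp1, the lipoprotein receptor, by 2.12 (SE 0.30, edgeR adjusted p = 5.81e-11), at 712 ± 47.9 CPM. Hip1r was lower in fibroblasts, by -1.80 (SE 0.29). Fcho1 was called lower there too, but it averaged 0.196 ± 0.247 CPM, so no fold is given. In smooth muscle the differences were -1.35 for Dab2 (SE 0.29) and -1.34 for Kdr (SE 0.38), the latter at 3.15 ± 4.19 CPM. Means of the other classes ran from 12.5 to 495 CPM for Dab2, highest in macrophages. For Kdr they ran from 1.29 to 79.0 CPM, highest in the Pecam1/Cdh5 class. With 1-rule barcodes the Kdr difference in smooth muscle was -1.50 (edgeR adjusted p = 0.0486). Fcho1 was also called lower in smooth muscle, but at 0.190 ± 0.165 CPM no fold is given. With 1-rule barcodes Fcho1 was not among the genes tested.

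**Figure D4:**
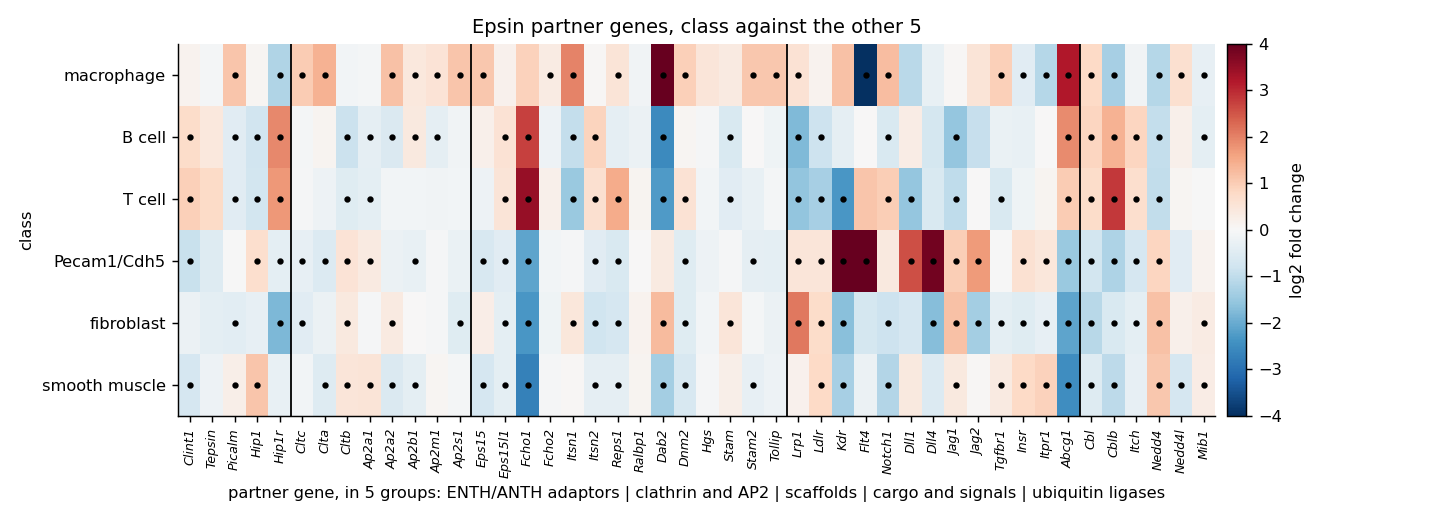
log2 fold change of 46 epsin partner genes (columns, in 5 groups separated by black lines) in each of 6 classes (rows) against the mean of the other 5, with colours limited to 4 in size. Dots mark an adjusted p under 0.05. Macrophages have 21 higher and 7 lower, beside 3020 and 2610 of all 13354 genes. Smooth muscle has 11 higher and 18 lower, beside 3933 and 3367 of all genes.

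The genes most like each epsin were ranked by Pearson r of log2(CPM + 10) over the 24 sums, among 3391 genes of at least 50 CPM on average. Those most like Epn1 were the translation factor subunit Eif3a (0.89), Marcksl1 (0.89), the leukocyte protein pleckstrin Plek (0.88), Oser1 (0.88) and the ubiquitin ligase Trim25 (0.86). Eif3a averaged 504 CPM in macrophages and 333 CPM in smooth muscle, where Epn1 averaged 57.8 and 28.9 CPM. Plek ran from 580 CPM in macrophages to 4.28 CPM in fibroblasts. Among those most like Epn2 were Rnf11 (0.97), Crip2 (0.94), Hmgn3 (0.94) and Pofut2, which adds fucose to proteins (0.93). Rnf11 averaged 70.6 CPM in macrophages and 177 CPM in smooth muscle. The points share libraries and classes, and the values are a description.

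The comparison of LysM-DKO with WT asks whether the epsin transcripts differ where the driver is active. Each group is 1 library, so no test between groups was made, and intervals cover counting error only. A 3' tag outside a deleted stretch is still counted, so the UMIs of Epn1 and Epn2 check neither the deletion nor the labels. In macrophages the log2 ratio of LysM-DKO to WT for Epn1 was -0.59 (95% interval -1.19 to 0.04) with normal diet and -0.27 (-0.90 to 0.26) with western diet. For Epn2 it was -0.11 (-0.95 to 0.84) and -1.03 (-2.12 to -0.20). The last of these rested on 11 and 130 UMIs and was 0.56 (-1.30 to 1.89) in the barcodes that matched 1 rule, from 5 and 22 UMIs.

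With all barcodes, 0 of the 12 ratios of an epsin in a class reached 2-fold on normal diet. Over all genes of at least 20 UMIs in the pair, 8.94% did so in macrophages, 6.36% in B cells, 6.69% in T cells, 4.57% in the Pecam1/Cdh5 class, 4.28% in fibroblasts and 7.45% in smooth muscle. On western diet, 2 of 12 did: Epn2 in macrophages, as above, and Epn2 in B cells, at 1.57 (-0.53 to 2.90) from 4 and 38 UMIs. The share of all genes was 13.2% in macrophages, 33.3% in B cells, 17.4% in T cells, 6.72% in the Pecam1/Cdh5 class, 6.81% in fibroblasts and 11.4% in smooth muscle.

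Outside macrophages, Epn1 ratios stayed small. In smooth muscle they were 0.08 (-0.07 to 0.24) with normal and -0.05 (-0.18 to 0.08) on western diet, and the Pecam1/Cdh5 class on normal diet, at 0.31 (0.01 to 0.62), had the only interval of the other 5 classes without 0. For Epn2 the ratios of the 2 diets lay further apart than for Epn1, except in the Pecam1/Cdh5 class, where those of Epn1 were 0.31 and -0.18. In smooth muscle the ratio with normal diet was 0.13 (0.04 to 0.22), and with western diet -0.37 (-0.43 to -0.31). In fibroblasts it was -0.17 (-0.45 to 0.12) and -0.55 (-0.80 to -0.30), and in the Pecam1/Cdh5 class -0.06 (-0.23 to 0.12) and -0.34 (-0.54 to -0.13). The last was 0.17 (-0.62 to 0.95) with 1-rule barcodes, from 28 and 32 UMIs. T cells had 0.79 (0.35 to 1.25) on normal diet. Their 1-rule barcodes on that diet lay further apart in Epn2. They were at 6.91% of the smooth muscle level in WT and 29.0% in LysM-DKO, from 8 and 23 UMIs. The median ratio over all genes lay between -0.05 and 0.12 in these comparisons.

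**Figure D5:**
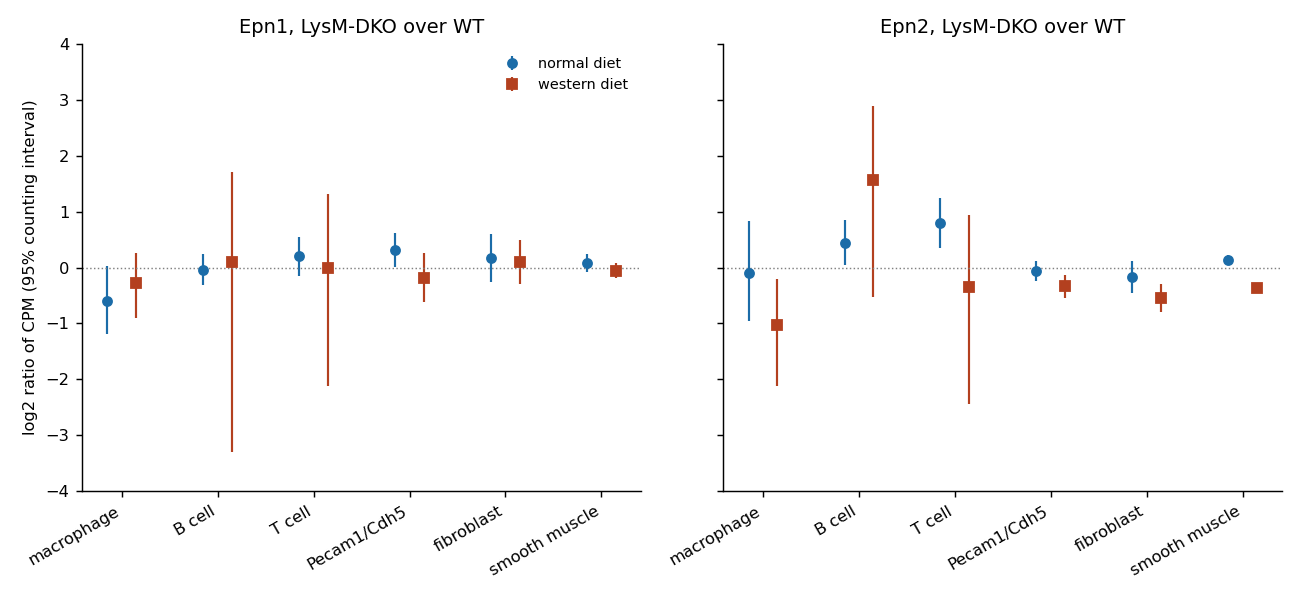
log2 ratio of LysM-DKO to WT for Epn1 (left) and Epn2 (right) in 6 classes, on normal diet (blue circles) and western diet (red squares). Bars are exact 95% conditional binomial intervals for counting error of 1 library against 1; in smooth muscle the Epn2 ratios are 0.13 and -0.37.

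Between the diets, which also differ in ApoE and sex, Epn1 was lower on western diet in smooth muscle, with log2 ratios of -0.42 (-0.56 to -0.27) among WT and -0.55 (-0.70 to -0.41) among LysM-DKO libraries. Epn2 there was 0.20 (0.13 to 0.28) and -0.30 (-0.37 to -0.22). In macrophages the Epn1 ratio among WT libraries was -0.65 (-1.14 to -0.11), and among LysM-DKO libraries -0.34 (-1.03 to 0.30), beside a median of 0.25 and 0.10 over all genes. The diet and genotype ratios share libraries, and no test was made with 1 library per group.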

How the data were processed

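The deposited matrices hold UMI counts per gene and barcode, which the authors made, per the file headers, with Cell Ranger 6.0.1 (normal diet) and 6.1.2 (western diet). The submitters' processing notes name Cell Ranger 6.1.2, Seurat 4.1.0 and mm10. UMIs were summed per library and class over the kept barcodes, and CPM is relative to the UMIs of that class. The 24 sums (at least 10 barcodes each) were fitted with edgeR 4.0.16 (quasi-likelihood, TMM, filterByExpr), with class and library as terms, and called at an adjusted p of 0.05. The SE beside an edgeR difference is its size divided by the normal score of its unadjusted p-value. It therefore restates that p-value and is not a separate estimate. The 4 libraries serve as replicates of a class although they differ in genotype and diet. Ratios between libraries had 0.5 UMI added and exact 95% intervals. In simulated data of 12572 genes for the macrophage comparison, 66.25% of 2-fold and 96.8% of 4-fold changes were recovered, with 2.68% false calls. The simulated counts had a fixed dispersion, few changed genes and no other difference between classes or libraries except depth. These rates therefore need not hold in the real data. Doublets were kept: the automatic threshold of scrublet (scanpy 1.11.5) marked at most 0.0101% of barcodes, so an alternative left out the top scores, up to 0.8% per 1000 barcodes. Of the feature IDs, 99.61% matched GENCODE M21.

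Members, class rule and lists were chosen with earlier results of these data known. Named partner genes are the up to 4 with the largest called change per class, and 5 genes most like each epsin, of which 1 for Epn2 is not reported here. Library is a block because the classes of a library share its preparation. Alternatives covered barcode filters, class thresholds, 1-rule barcodes, DESeq2 1.42.0, scaling, and leaving out each library.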

Additional observations from a re-analysis of the deposited data

Results flagged for a closer look

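In 2 of 18 sets of 4 libraries 1 value stood far from the others, where chance gives about 1 in 20. Epn2 in macrophages was at 15.7 CPM in the LysM-DKO/ApoE-/- library, from 11 UMIs, against 33.2 to 35.6 CPM in the others. Epn2 in B cells was at 79.7 CPM in the same library, from 4 UMIs in 14 barcodes. Epn2 in smooth muscle had genotype ratios of opposite sign on the 2 diets, each with a counting interval that left out 0, and the western minus the normal ratio was -0.50 on the log2 scale. The same 4 libraries give the equal difference between the diet ratios, LysM-DKO minus WT, of -0.50. The difference was not tested, since each group is 1 library.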

How the results depend on the processing

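Over 19 alternatives, the calls of Epn1 in macrophages and smooth muscle and of Epn2 in B cells, T cells, the Pecam1/Cdh5 class and smooth muscle kept their direction and their side of the threshold. With all barcodes, Epn1 in fibroblasts was not called with doubled class thresholds (-0.32), with WT libraries only (-0.53), or without either normal diet library, and ranged from -0.52 to -0.33 as each library was left out. Without a replicate block for the library, Epn2 in fibroblasts was 0.40 and no longer called. No other of the 12 comparisons changed its side of the threshold without the block. Barcodes of 1 rule put Epn1 in T cells at -0.046, the Epn2 genotype ratio on western diet at 0.56 in macrophages and 0.17 in the Pecam1/Cdh5 class, and the WT diet ratio of Epn2 in that class at -0.20. These reversed sign, and the cause was not tested.

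Leaving out a library among barcodes of 1 rule was chosen after seeing the data. Without the WT normal diet library Epn1 was -0.089 in T cells, and the calls of Epn1 in the Pecam1/Cdh5 class (-0.50) and in fibroblasts (-0.36) were lost. Without the LysM-DKO normal diet library those in B cells (0.56), the Pecam1/Cdh5 class (-0.65) and fibroblasts (-0.42) were lost. Without the WT/ApoE-/- library Epn1 was -0.13 in T cells, and the calls of Epn1 in the Pecam1/Cdh5 class (-0.54) and fibroblasts (-0.47) and of Epn2 in macrophages (-0.29) and fibroblasts (0.58) were lost. Without the LysM-DKO/ApoE-/- library that of Epn2 in macrophages (-0.75) was lost. These fits hold fewer barcodes and sums.

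With WT libraries only, the genes called were 2781 in macrophages (5630 with all 4), 3020 in the Pecam1/Cdh5 class (6477), 3582 in fibroblasts (6830) and 3685 in smooth muscle (7300), from fewer samples. Barcodes of 1 rule gave 4942 in T cells (7634) and 2417 in the Pecam1/Cdh5 class (6477). Macrophage epsin counts of 5 to 205 UMIs, and B and T cells of the LysM-DKO/ApoE-/- library, limit what genotype ratios can show.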
